A study of Mus musculus with 6 samples.

Results

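The 35 genes described here encode the machinery that moves new proteins into the endoplasmic reticulum (ER), cuts off their signal peptides, folds them and disposes of those that misfold. They were chosen by symbol for their function, with earlier results of these data known, and all 35 were found among the 24421 gene symbols of the table. By role they are 14 chaperones and folding enzymes, the transcription factor gene Xbp1, 6 genes of ER-associated degradation, 5 of the translocon, 4 of the translocon-associated protein (TRAP) complex and 5 of the signal peptidase complex. RNA was sequenced from 3 mouse pancreatic ductal adenocarcinoma lines, 2838c3, 6419c5 and 6499c4. Each line gave 1 library after 16 hours in 250 nM G-1, a compound that activates GPER, a membrane receptor for oestrogen, and 1 library after the DMSO vehicle for the same time. All cells, treated or not, grew in serum-containing medium, and the lines came from the Stanger laboratory. The comparisons are G-1 against vehicle over the 3 lines, which asks what the agonist does to these genes, and the lines against each other, since a treatment was not repeated within a line.

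Proteins bound for secretion, for membranes or for the lumen of the secretory pathway cross the ER membrane through the Sec61 channel while the ribosome is still making them. Lumenal chaperones such as BiP (Hspa5) hold them until disulphide bonds and sugar chains are in place, and chains that fail are sent back to the cytosol for destruction. When unfolded chains build up, the sensors IRE1, PERK and ATF6 switch on the unfolded protein response, which raises transcription of many of these chaperone genes through ATF6 and spliced XBP1. The exocrine pancreas is among the most secretory of tissues, and ductal tumours arise in that organ.

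The DNA element through which ATF6 is known to act, the ER stress response element (ERSE), is shown here because it ties a subset of the chaperone genes together independently of any measured level. It was searched as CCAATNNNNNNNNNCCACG, where N is any base, on both strands from 250 bases before to 50 after each RefSeq transcript start (GRCm38.p6). A window was given for 28 of the 35 members. The element was present in 8 of the 28, namely Hspa5, Calr, Hsp90b1, Canx, Pdia6, Dnajc3, Creld2 and Syvn1, against 0.119% of all 32851 promoter windows. By role it was in 7 of the 12 chaperone genes with a window and in 1 of 5 degradation genes. A match was found in 0 of 4 translocon, 0 of 3 TRAP and 0 of 3 signal peptidase genes. A second form, ERSE-II (ATTGGNCCACG), was in Herpud1 and Dnajb11 and in 0.0365% of all windows. The XBP1-type element TGACGTGG was in 0 of the 28 and in 0.676% of all windows, and its last bases read as the end of an ERSE on the opposite strand. The matches are given 5′ to 3′ in the orientation of the motif, with the fixed bases of the motif in capitals and the spacer in lower case, each with the strand it is read from. None of these matches overlapped another. A match is a string of letters and not evidence of binding in these cells.
Hspa5 (chr2:34772025-34772043, plus strand): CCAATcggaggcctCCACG
Calr (chr8:84847075-84847093, plus strand): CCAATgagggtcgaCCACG
Hsp90b1, distal (chr10:86705638-86705656, minus strand): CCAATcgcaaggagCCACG
Hsp90b1, proximal (chr10:86705533-86705551, plus strand): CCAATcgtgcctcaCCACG
Canx (chr11:50325800-50325818, minus strand): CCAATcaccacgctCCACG
Pdia6 (chr12:17266491-17266509, plus strand): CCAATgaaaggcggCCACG
Dnajc3 (chr14:118937827-118937845, plus strand): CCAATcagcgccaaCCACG
Creld2 (chr15:88819520-88819538, minus strand): CCAATtgaggctcgCCACG
Syvn1 (chr19:6046532-6046550, plus strand): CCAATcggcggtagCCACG
Herpud1, ERSE-II (chr8:94386377-94386387, plus strand): ATTGGgCCACG
Dnajb11, ERSE-II (chr16:22857852-22857862, plus strand): ATTGGcCCACG
Hsp90b1 was the member with a pair of ERSE matches, in opposite orientations. The 140 bases that hold both, from position -220 to -81 relative to its RefSeq start, are printed on the gene's strand with the fixed bases of both matches in capitals.
Hsp90b1, upstream (chr10:86705525-86705664, minus strand): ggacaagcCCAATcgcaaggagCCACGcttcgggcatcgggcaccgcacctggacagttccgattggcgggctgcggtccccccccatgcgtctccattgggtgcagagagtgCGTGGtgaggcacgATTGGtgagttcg
The Hspa5 match lies 65 to 47 bases before the RefSeq start, inside the first exon of a longer transcript in GENCODE M21. The Dnajb11 match lies just after the RefSeq start, at bases 8 to 18.

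Levels are deposited as FPKM, reads per kilobase of gene length on a common library scale. A comparison of levels between genes thus rests on the gene length behind each value. The libraries held 5455990 to 8890821 reads in genes, and 13071 to 13627 genes were above 0. The epithelial keratins Krt8 (795 to 1550 FPKM) and Krt18 (1520 to 2650 FPKM) and the adhesion gene Cdh1 (169 to 352 FPKM) were high in all 6 libraries, while Epcam was low (0.284 to 5.81 FPKM). Of the secretory cell types that also carry a large ER, acinar markers summed to 1.21 to 7.74 FPKM in G-1 libraries and 1.22 to 4.05 FPKM in vehicle libraries, with Cpa1, Pnlip and Ptf1a at 0 throughout. Plasma cell markers summed to 88.3 to 154 FPKM in G-1 libraries and 83.3 to 153 FPKM in vehicle libraries, nearly all of it from Sdc1 (syndecan-1), which epithelial cells express too, while Mzb1 was at 0 in all 6 libraries. Fibroblast markers summed to at most 1.05 FPKM with G-1 and 1.11 FPKM with vehicle. In bulk RNA, fewer cells of a type and less RNA per cell cannot be told apart.

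Calreticulin was the most abundant member, followed by BiP. Calr, a calcium-binding lectin chaperone, had 736, 708 and 494 FPKM in the G-1 libraries of 2838c3, 6419c5 and 6499c4, against 792, 724 and 447 FPKM in their vehicle libraries. Hspa5, the ER member of the HSP70 family, had 514, 632 and 324 FPKM with G-1 in the same order of lines and 490, 584 and 328 FPKM with vehicle. In both genes every library of 6499c4 was below every library of the other lines. Hsp90b1 (GRP94, the ER member of the HSP90 family) and the disulphide isomerase gene Pdia3 came next, with averages of 322 and 309 FPKM over the 6 libraries. At the other end, the co-chaperone genes Dnajb9 (7.6 to 13.6 FPKM) and Sdf2l1 (9.1 to 21.2 FPKM) were the lowest of the chaperone group. The degradation genes lay between 10.4 FPKM (Derl2) and 68 FPKM (Herpud1) in single libraries. Subunits of 1 complex did not sit at 1 level: in the TRAP complex Ssr3 averaged 241 FPKM, Ssr2 186 FPKM, Ssr4 93.0 FPKM and Ssr1 38.5 FPKM. The length behind Ssr1 is 9306 bases and that behind Ssr2 1183, and Ssr1 had more reads than Ssr2 in each library.

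**Figure D1:**
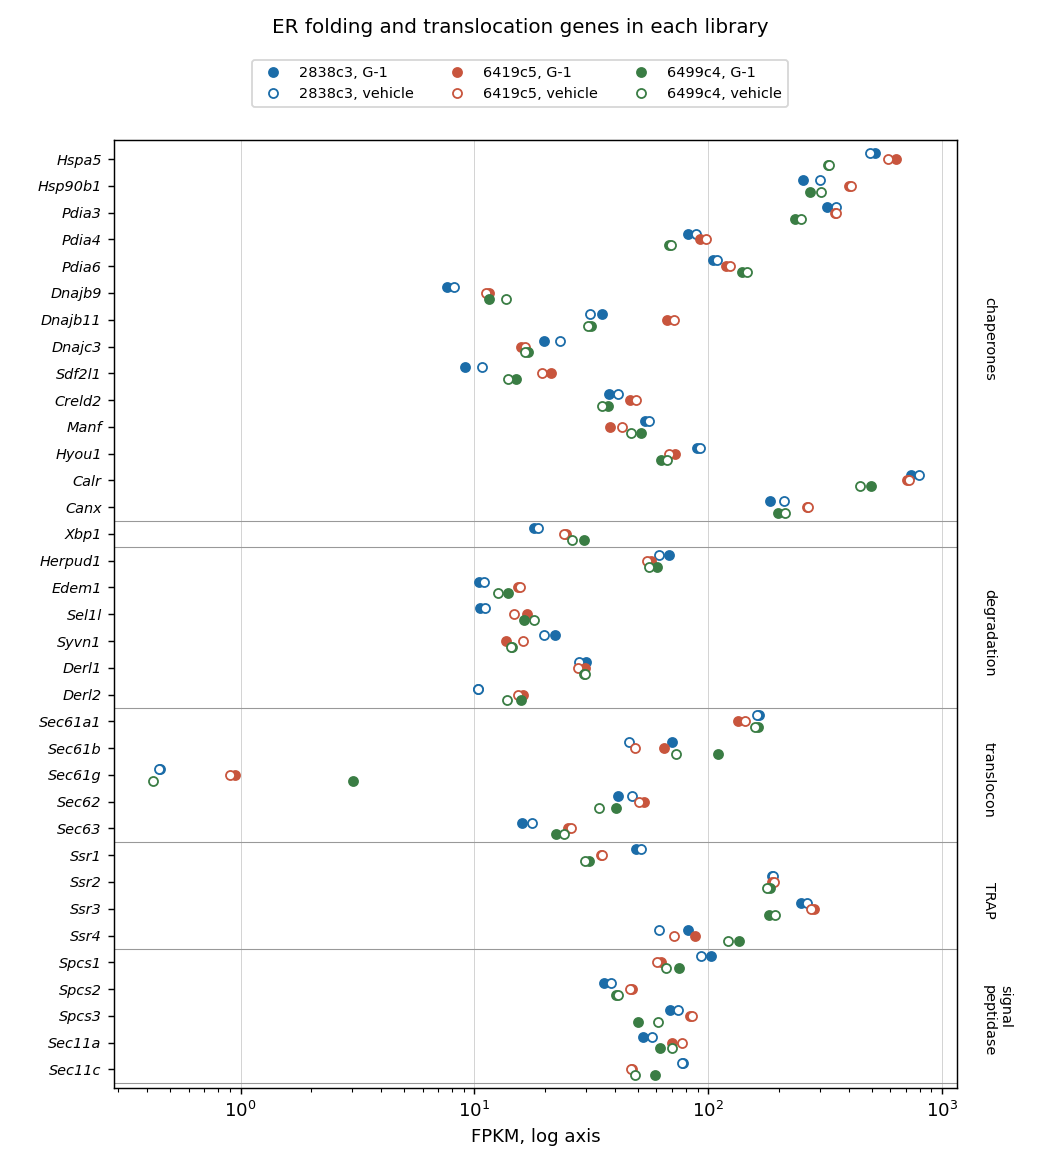
FPKM of the 35 members in each of the 6 libraries on a log axis, 1 row per gene grouped by role, with filled circles for G-1, open circles for vehicle and a colour per line. Circles of 1 line lie close together for nearly all genes, while the lines separate in many rows, as for Hspa5 and Calr, where 6499c4 is lowest.

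Far more members differed between the lines than between G-1 and vehicle. In limma on log2(FPKM + 1), with Benjamini-Hochberg adjustment over 10748 genes, 24 of 35 members differed between 2838c3 and 6419c5 at an adjusted p under 0.05. Of these, 9 were higher and 15 lower in 2838c3. Over all genes tested 51.5% were called in that pair, 25.3% higher and 26.2% lower. Between 2838c3 and 6499c4, 22 members were called, 12 higher and 10 lower in 2838c3, beside 55.6% of all genes (28.9% higher, 26.6% lower). Between 6419c5 and 6499c4, 17 members were called, 12 higher and 5 lower in 6419c5, beside 45% of all genes (23.7% higher, 21.3% lower). The called share of members was 68.6%, 62.9% and 48.6% in the 3 pairs, in the same order, and nothing particular to the members is read from it. Of the 35 members 17, or 48.6%, had their highest mean in 6419c5, against 29.5% of all genes tested, 10 in 2838c3 and 8 in 6499c4. This share is a description and was not tested.

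Each line rests on 2 libraries, 1 per treatment, and some calls were lost when 1 library was left out. With each library of a pair left out in turn, 10 of the 24 calls between 2838c3 and 6419c5 were kept in all 4 fits, 15 of 22 between 2838c3 and 6499c4, and 10 of 17 between 6419c5 and 6499c4. Between 2838c3 and 6419c5, 13 members were called without the G-1 library of 2838c3, 18 without its vehicle library, 12 without the G-1 library of 6419c5 and 15 without its vehicle library. Between 6419c5 and 6499c4 the counts were 10 without the G-1 library of 6419c5, 11 without its vehicle library and 14 without either library of 6499c4. Of the 28 calls lost in at least 1 fit over the 3 pairs, 8 were lost in all 4 fits, and in 26 the size of the difference stayed within 1.5 times that with all libraries. The sign turned in 0 of them. A fit without 1 library has fewer residual degrees of freedom for every gene, and counts over all genes are not given here. Nothing particular to the members is therefore read from these losses. The calls named below as kept are those that stood in all 4 such fits, in each of which the lone library of a line is assumed to vary like the others.

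**Figure D2:**
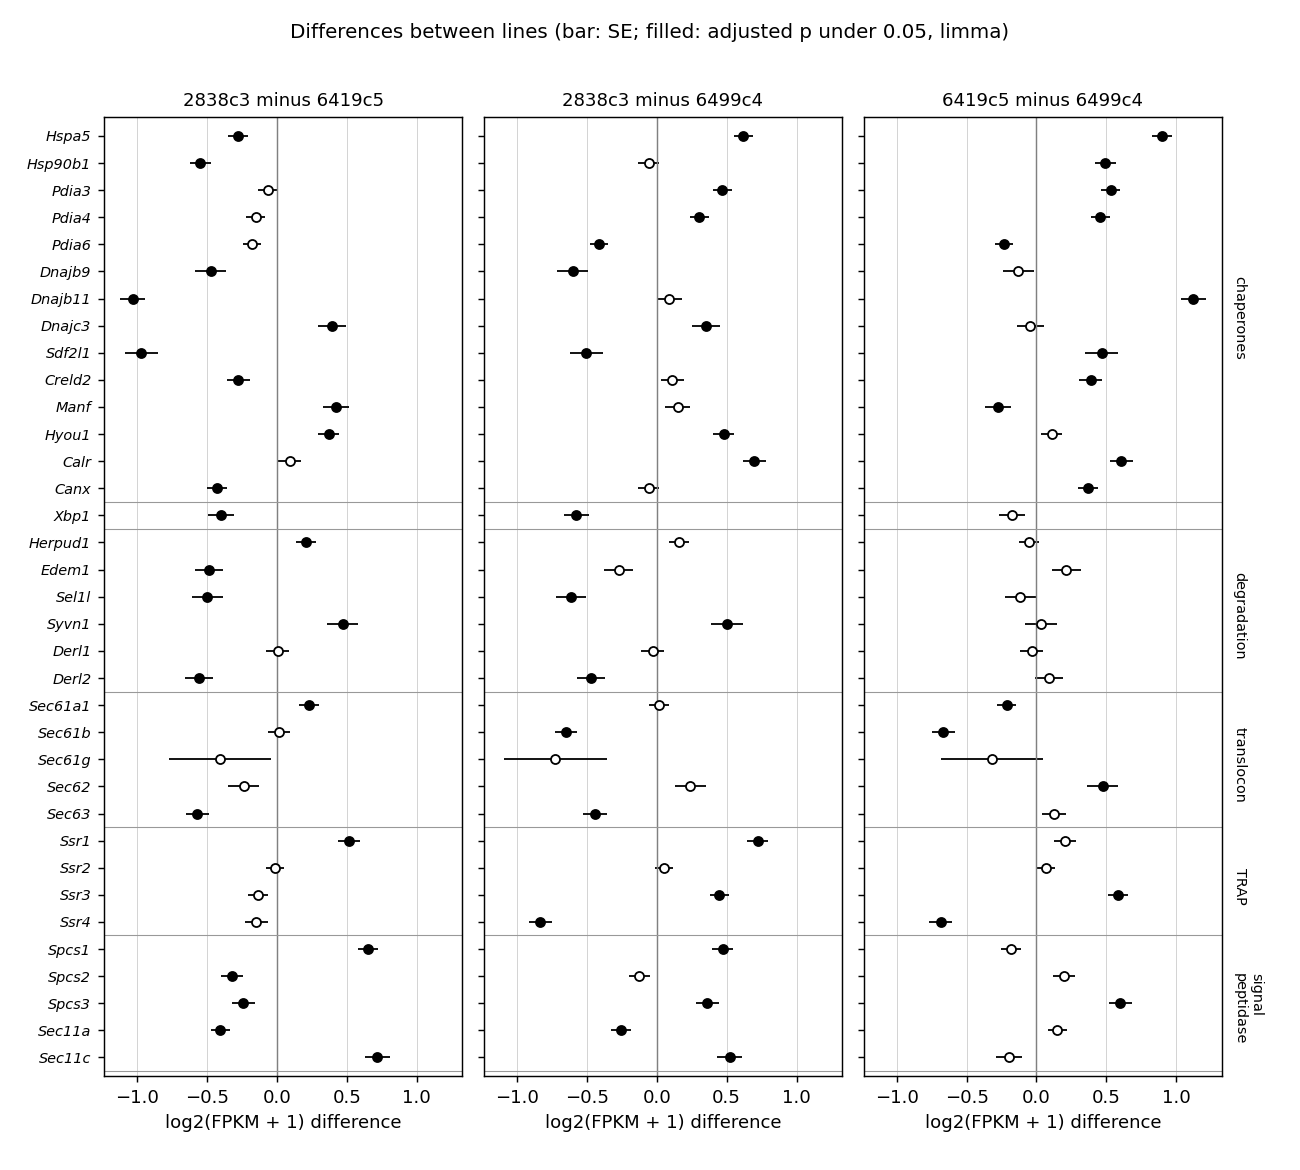
Difference of each member between lines on the log2(FPKM + 1) scale, 1 panel per pair, the first-named line minus the second, with bars for the SE and filled circles for adjusted p under 0.05. The chaperones lie mostly right of 0 in the panel of 6419c5 minus 6499c4, and the subunits of the lower 3 complexes fall on both sides of 0 in every panel.

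Summed over the 14 chaperones and folding enzymes, the level was lowest in 6499c4 and highest in 6419c5. The sums were 2450, 2830 and 1960 FPKM in the G-1 libraries of 2838c3, 6419c5 and 6499c4, against 2600, 2830 and 1980 FPKM in the vehicle libraries. Calr and Hspa5, the most abundant, weigh most in these sums, and the genes did not share 1 order. By line mean, Hsp90b1, Canx, Pdia6, Dnajb9 and Sdf2l1 were lowest in 2838c3, Dnajc3 and Manf in 6419c5, and the rest in 6499c4. Between 6419c5 and 6499c4, 9 of the 14 were higher in 6419c5 and 2 lower, with a median log2 difference of 0.42 beside -0.006 over all genes tested. Between 2838c3 and 6419c5, 3 were higher and 7 lower in 2838c3, with a median of -0.23 beside -0.001. Between 2838c3 and 6499c4, 6 were higher and 3 lower in 2838c3, with a median of 0.13 beside 0.005. That last median was 0.0 when libraries were scaled to their total reads, a scaling that also moved the median of all genes in this pair to -0.115. The called shares of the 14 were 78.6%, 71.4% and 64.3% in the pairs as ordered here, beside 45%, 51.5% and 55.6% of all genes. These shares were not tested.

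Within the chaperone group, Hspa5, Calr, Pdia3 and Pdia4 were among the genes with their lowest levels in 6499c4. Hspa5 was higher in 6419c5 than in 6499c4, with a log2 difference of 0.90 (SE 0.070, adjusted p = 8.01e-05) for 6419c5 minus 6499c4. It was also higher in 2838c3 than in 6499c4 (0.62, SE 0.070, adjusted p = 0.000279). Its smaller difference between 2838c3 and 6419c5 (-0.28, adjusted p = 0.0134) lost the call when any 1 of the 4 libraries was left out, with adjusted p from 0.0629 to 0.128. Calr was higher in 2838c3 than in 6499c4 by 0.70 (SE 0.082, adjusted p = 0.00033) and higher in 6419c5 than in 6499c4 by 0.61 (SE 0.082, adjusted p = 0.000949). Pdia3, the isomerase that works with calreticulin and calnexin on glycoproteins, had 321, 348 and 235 FPKM with G-1 in 2838c3, 6419c5 and 6499c4 and 351, 353 and 249 FPKM with vehicle. The 2 libraries of 6499c4 were again the lowest, and Pdia3 was higher in 6419c5 by 0.53 (SE 0.068, adjusted p = 0.000717). Pdia4, another isomerase, was higher in 6419c5 than in 6499c4 by 0.46 (adjusted p = 0.00161). All the calls against 6499c4 in this paragraph were kept.

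Calnexin did not follow calreticulin. Canx, the membrane-bound lectin chaperone, had 183, 263 and 198 FPKM with G-1 in 2838c3, 6419c5 and 6499c4, against 211, 268 and 212 FPKM with vehicle. It was highest in 6419c5 and overlapped between the other lines, with a difference of -0.06 for 2838c3 minus 6499c4 (SE 0.072, adjusted p = 0.52). Its call of 2838c3 below 6419c5 was kept (-0.43, adjusted p = 0.00225). The ratio of Calr to Canx was 4.02, 2.7 and 2.5 in the G-1 libraries and 3.75, 2.7 and 2.11 in the vehicle libraries, so 2838c3 had the highest ratio under both treatments. Hsp90b1 shared the pattern of Canx: 254, 400 and 271 FPKM with G-1 in the 3 lines and 299, 407 and 303 FPKM with vehicle. It was lower in 2838c3 than in 6419c5 by a log2 difference of -0.55 (SE 0.075, adjusted p = 0.000878) and higher in 6419c5 than in 6499c4 by 0.49 (adjusted p = 0.00175), and both calls were kept. The ratio of Hspa5 to Hsp90b1 was 2.02, 1.58 and 1.2 with G-1 in 2838c3, 6419c5 and 6499c4 and 1.64, 1.43 and 1.08 with vehicle.

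The J-domain partners of BiP differed in direction among themselves. Dnajb11 (ERdj3), which binds unfolded chains with BiP, had 35.2, 66.3 and 31.6 FPKM with G-1 in 2838c3, 6419c5 and 6499c4, against 31.2, 71.3 and 30.6 FPKM with vehicle. Both libraries of 6419c5 were well above those of the other lines, with a log2 difference of -1.03 for 2838c3 minus 6419c5 (SE 0.089, adjusted p = 0.000117) and 1.12 for 6419c5 minus 6499c4 (SE 0.089, adjusted p = 8.73e-05). Sdf2l1, whose product forms a complex with ERdj3, had 9.1, 21.2 and 15 FPKM with G-1 and 10.8, 19.5 and 13.9 FPKM with vehicle. It too was highest in 6419c5, and its difference of -0.97 for 2838c3 minus 6419c5 was kept (SE 0.117, adjusted p = 0.000483). Its call of 2838c3 below 6499c4 (-0.50, adjusted p = 0.00836) was lost without the G-1 library of either line (0.0874 without that of 2838c3 and 0.0675 without that of 6499c4). That difference was -0.25 after correction for gene length (adjusted p = 0.11).

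Dnajb9 and Dnajc3 went other ways. Dnajb9 (ERdj4), a co-chaperone linked to degradation, had 7.6, 11.5 and 11.5 FPKM with G-1 and 8.21, 11.2 and 13.6 FPKM with vehicle. It was lower in 2838c3 than in 6499c4 by a log2 difference of -0.60 (SE 0.113, adjusted p = 0.00313), a kept call. Dnajc3 (p58IPK) had 19.9, 15.8 and 16.9 FPKM with G-1 and 23.2, 16.5 and 16.4 FPKM with vehicle, and was highest in 2838c3. Its call of 2838c3 above 6419c5 (0.39, adjusted p = 0.0131) was lost in 3 of the 4 fits with a library left out, with adjusted p of 0.133 without the vehicle library of 2838c3, 0.0755 without the G-1 library of 6419c5 and 0.0939 without its vehicle library.

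Of the remaining chaperone genes, Pdia6 ran against Pdia3 and Pdia4. This isomerase had 105, 119 and 139 FPKM with G-1 in 2838c3, 6419c5 and 6499c4 and 109, 124 and 147 FPKM with vehicle, so it was highest in 6499c4 under both treatments. It was lower in 2838c3 than in 6499c4 by a log2 difference of -0.41 (SE 0.065, adjusted p = 0.00141), a kept call. Its smaller difference of -0.23 for 6419c5 minus 6499c4 (adjusted p = 0.0226) stayed at -0.24 to -0.23 with each of the 4 libraries left out but was then not called (adjusted p from 0.0788 to 0.11). Hyou1 (GRP170), which recharges BiP with ATP, was highest in 2838c3, with 89.6, 72.2 and 62.6 FPKM with G-1 and 91.7, 67.7 and 66.9 FPKM with vehicle. Its difference of 0.48 for 2838c3 minus 6499c4 was kept (SE 0.076, adjusted p = 0.00145). Manf, a secreted ER stress protein, had 53.5, 38.1 and 51.5 FPKM with G-1 and 55.6, 42.9 and 46.7 FPKM with vehicle, lowest in 6419c5. The call of 2838c3 above 6419c5 (0.42, adjusted p = 0.00697) was lost without the G-1 library of 6419c5 (adjusted p = 0.0787). Its call against 6499c4 (-0.27 for 6419c5 minus 6499c4, adjusted p = 0.0444) was lost without either library of 6419c5 (0.306 without G-1, 0.0582 without vehicle) or the G-1 library of 6499c4 (0.319). Creld2, an ER stress-inducible gene, was highest in 6419c5 at 46.1 FPKM with G-1 and 49.1 FPKM with vehicle.

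The genes that carry an ERSE did not move as 1 block between lines. For 6419c5 minus 6499c4, Hspa5 (0.90), Calr (0.61), Hsp90b1 (0.49), Creld2 (0.39) and Canx (0.37) were higher in 6419c5, Pdia6 was lower (-0.23), and Dnajc3 (-0.04) and Syvn1 (0.03) were not called. The call of Pdia6 was lost with any 1 of the 4 libraries left out, at differences from -0.24 to -0.23. Creld2 lost its call without either library of 6419c5 (adjusted p = 0.0537 and 0.0736 without G-1 and vehicle) and without the vehicle library of 6499c4 (0.0628), and Canx without the G-1 library of 6419c5 (0.0715). For 2838c3 minus 6499c4, Calr (0.70), Hspa5 (0.62), Syvn1 (0.50) and Dnajc3 (0.35) were higher in 2838c3, Pdia6 was lower (-0.41), and Creld2 (0.11), Hsp90b1 (-0.06) and Canx (-0.06) were not called. Dnajc3 lost that call without the vehicle library of either line (0.183 and 0.14 without that of 2838c3 and of 6499c4). The call of Syvn1 in this pair was lost without the G-1 library of 2838c3, and that of Pdia6 was kept. For 2838c3 minus 6419c5, Hsp90b1 (-0.55), Canx (-0.43), Hspa5 (-0.28) and Creld2 (-0.27) were lower in 2838c3. There Syvn1 (0.47) and Dnajc3 (0.39) were higher, and Pdia6 (-0.18) and Calr (0.09) were not called. Of these calls, those of Hsp90b1 and Canx were kept. The member with ERSE-II that differed most, Dnajb11, stood apart in 6419c5, while Herpud1, the other one, varied little over the lines (54.8 to 68 FPKM).

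Xbp1, the transcription factor whose messenger RNA IRE1 splices, was lowest in 2838c3. It had 18, 24.7 and 29.5 FPKM with G-1 in 2838c3, 6419c5 and 6499c4, against 18.7, 24.2 and 26.1 FPKM with vehicle, and no library of 2838c3 overlapped another line. The difference of -0.57 for 2838c3 minus 6499c4 (SE 0.092, adjusted p = 0.00147) was kept. That of -0.40 for 2838c3 minus 6419c5 (adjusted p = 0.00915) was lost without the G-1 library of 2838c3 (0.0866) and without the G-1 (0.0602) or vehicle (0.0752) library of 6419c5. A value per gene does not separate the spliced from the unspliced form.

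Among the 6 members of ER-associated degradation, the line differences that passed the test in limma involved 2838c3. Between 6419c5 and 6499c4, 0 of the 6 were called, beside 45% of all genes. Differences there ran from -0.12 to 0.21, and 0 had an unadjusted p under 0.05. This did not hold for other degradation genes: of 14 tested in that pair, 2 were called higher in 6419c5 and 1 lower. The largest difference was that of Ufd1l (1.09 for 6419c5 minus 6499c4, SE 0.087, adjusted p = 8.91e-05). With limma-voom on whole reads, Edem1 was called in that pair (adjusted p = 0.0438). Sel1l, the adaptor of the HRD1 ubiquitin ligase, had 10.6, 16.7 and 16.3 FPKM with G-1 in 2838c3, 6419c5 and 6499c4 and 11.1, 14.8 and 17.9 FPKM with vehicle. Syvn1, which encodes the HRD1 ligase itself, ran the other way, with 22, 13.6 and 14.5 FPKM with G-1 and 19.9, 16.2 and 14.4 FPKM with vehicle. For 2838c3 minus 6499c4 the log2 difference was -0.61 for Sel1l (SE 0.109, adjusted p = 0.00245), a kept call, and 0.50 for Syvn1 (SE 0.113, adjusted p = 0.00727). The Syvn1 call was lost without the G-1 library of 2838c3 (adjusted p = 0.0786). Against 6419c5 the differences were -0.50 for Sel1l (adjusted p = 0.00735) and 0.47 for Syvn1 (adjusted p = 0.0109). Both were lost without the G-1 library of 2838c3 (0.0542 for Sel1l, 0.109 for Syvn1) or of 6419c5 (0.0839 for Sel1l, 0.108 for Syvn1).

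The derlins, membrane proteins of the same ligase complex, also split. Derl2 had 10.4, 16.2 and 15.8 FPKM with G-1 in 2838c3, 6419c5 and 6499c4 and 10.4, 15.4 and 13.8 FPKM with vehicle, and was lower in 2838c3 than in 6419c5 (-0.56, SE 0.1, adjusted p = 0.00294, kept). Derl1 was level, at 29.9, 29.8 and 29.3 FPKM with G-1 and 28, 27.8 and 29.7 FPKM with vehicle, a ratio of 1.02 between its highest and lowest line, though the pseudogene Gm35638 matches 20.5% of its transcript and could share its reads. Edem1, a mannosidase-like factor that marks glycoproteins for degradation, was lowest in 2838c3 at 10.5 FPKM with G-1 and 11 FPKM with vehicle.

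In the translocon, subunits of 1 channel differed between lines in different ways. Sec61a1, the pore subunit, had 164, 134 and 163 FPKM with G-1 in 2838c3, 6419c5 and 6499c4 and 162, 143 and 159 FPKM with vehicle. It was lowest in 6419c5, but that call (-0.21 for 6419c5 minus 6499c4, adjusted p = 0.0413) was lost without any 1 of the 4 libraries, with differences from -0.27 to -0.15 and adjusted p from 0.0726 to 0.258. Sec61b, the small beta subunit, was highest in 6499c4 under both treatments: 70.1, 64.6 and 110 FPKM with G-1 and 45.9, 48.7 and 73 FPKM with vehicle. Its difference for 6419c5 minus 6499c4 was -0.67 (SE 0.080, adjusted p = 0.000533), and for 2838c3 minus 6499c4 -0.65 (SE 0.080, adjusted p = 0.000419), both kept with a library left out. After correction for gene length these were -0.36 (adjusted p = 0.0081) and -0.12 (adjusted p = 0.221). Sec63, the J-domain protein that brings BiP to the channel, was lowest in 2838c3, at 16, 25 and 22.4 FPKM with G-1 and 17.6, 25.9 and 24.2 FPKM with vehicle, with kept calls against 6419c5 (-0.57, SE 0.085, adjusted p = 0.00131) and 6499c4 (-0.44, adjusted p = 0.00348). Sec62, its partner in post-translational import, ranged from 34 to 53.3 FPKM.

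Sec61g, the gamma subunit, was near the floor of detection. It had 3, 4 and 19 reads with G-1 in 2838c3, 6419c5 and 6499c4, against 3, 5 and 3 reads with vehicle, and passed the filter of a mean of 1 FPKM through the G-1 library of 6499c4 alone (3.04 FPKM, against at most 0.943 FPKM in the other 5). Its transcript shares stretches of at least 95% identity with the pseudogenes Gm10177, Gm11575, Gm14989 and Gm16412, so reads may have been lost to copies, and its level is uncertain. Sec61b has a near-identical copy as well: Gm10320 matches 84.0% of its transcript at 98.3% identity, and no value of Gm10320 was used here.

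The TRAP complex, which aids the insertion of some signal sequences, held one of the most level members and some that differed widely. Ssr2 was level over the lines, at 188, 188 and 184 FPKM with G-1 in 2838c3, 6419c5 and 6499c4 and 189, 191 and 178 FPKM with vehicle, a ratio of 1.05 between lines. With the trend on gene length removed, Ssr2 was called by limma for 2838c3 minus 6499c4 (0.27, adjusted p = 0.00741) and for 6419c5 minus 6499c4 (0.18, adjusted p = 0.0485). Ssr1 was highest in 2838c3, at 49.3, 34.7 and 30.8 FPKM with G-1 and 51.5, 35.1 and 29.6 FPKM with vehicle. Its differences of 0.72 for 2838c3 minus 6499c4 (SE 0.077, adjusted p = 0.000222) and 0.52 for 2838c3 minus 6419c5 (SE 0.077, adjusted p = 0.00129) were kept, and stood at 0.50 and 0.40 after correction for gene length. Ssr4 was highest in 6499c4, at 82.1, 87.3 and 135 FPKM with G-1 and 61.8, 71.4 and 121 FPKM with vehicle. For it, 2838c3 minus 6499c4 gave -0.83 (SE 0.081, adjusted p = 0.00014) and 6419c5 minus 6499c4 gave -0.68 (SE 0.081, adjusted p = 0.000498), and both stood after correction for gene length (-0.45 and -0.48). Ssr3 was lowest in 6499c4, at 182 FPKM with G-1 and 192 FPKM with vehicle, with 0.58 for 6419c5 minus 6499c4 (SE 0.069, adjusted p = 0.000522). Relative to Ssr2 in the same library, Ssr4 ran at 0.437, 0.465 and 0.73 with G-1 in 2838c3, 6419c5 and 6499c4 and at 0.327, 0.373 and 0.677 with vehicle. Ssr1 over Ssr2 ran in the reverse order of lines, at 0.263, 0.185 and 0.167 with G-1 and 0.273, 0.184 and 0.166 with vehicle.

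In the signal peptidase complex the 2 catalytic subunits differed in opposite directions between 2838c3 and 6419c5. All 5 members were called in that pair, where 51.5% of all genes were, 2 higher and 3 lower in 2838c3. Sec11c, 1 of 2 alternative catalytic subunits, had 78.1, 47 and 59.4 FPKM with G-1 in 2838c3, 6419c5 and 6499c4 and 77.4, 46.7 and 48.8 FPKM with vehicle. Sec11a, the other, had 52.6, 69.6 and 62.3 FPKM with G-1 and 57.6, 77 and 69.7 FPKM with vehicle. For 2838c3 minus 6419c5 the differences were 0.72 for Sec11c (SE 0.090, adjusted p = 0.000583) and -0.40 for Sec11a (SE 0.069, adjusted p = 0.0024), and both calls were kept. Their sum varied less, at 131, 117 and 122 FPKM with G-1 and 135, 124 and 118 FPKM with vehicle. Sec11c was 59.7%, 40.3% and 48.8% of that sum in the G-1 libraries and 57.3%, 37.8% and 41.2% in the vehicle libraries of 2838c3, 6419c5 and 6499c4. In 2838c3 it had the higher FPKM of the pair in both libraries, and in the other lines Sec11a did. This order within 2838c3 rests on the gene lengths, 770 bases for Sec11c and 1113 for Sec11a. In reads, Sec11c and Sec11a had 513 and 500 with G-1 there, and 510 and 549 with vehicle. The call of Sec11a in 2838c3 below 6499c4 (-0.25, adjusted p = 0.0163) was lost without any 1 of the 4 libraries (differences from -0.27 to -0.24, adjusted p from 0.059 to 0.104) and was -0.008 after correction for gene length. In GENCODE, Sec11a shares 163 exonic bases with Nmb on the same strand, so reads there could belong to either gene.

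Among the accessory subunits, Spcs1 followed Sec11c and Spcs3 did not. Spcs1, which helps the enzyme tell signal peptides from membrane spans, had 103, 63 and 74.9 FPKM with G-1 and 92.7, 60.4 and 65.8 FPKM with vehicle, highest in 2838c3 in each treatment. It was higher there than in 6419c5 by 0.66 (SE 0.072, adjusted p = 0.00031), a kept call. Spcs3 was lowest in 6499c4, at 68.6, 83.8 and 50.2 FPKM with G-1 and 74.3, 85 and 61 FPKM with vehicle, with 0.60 for 6419c5 minus 6499c4 (SE 0.083, adjusted p = 0.00107, kept). Spcs2, 23.5% of whose transcript matches the pseudogene Spcs2-ps, ranged from 35.9 to 47 FPKM. Spcs1 overlaps an exon of Glt8d1 on the opposite strand by 223 bases, and the sources used here do not say whether counting used the strand.

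**Figure D3:**
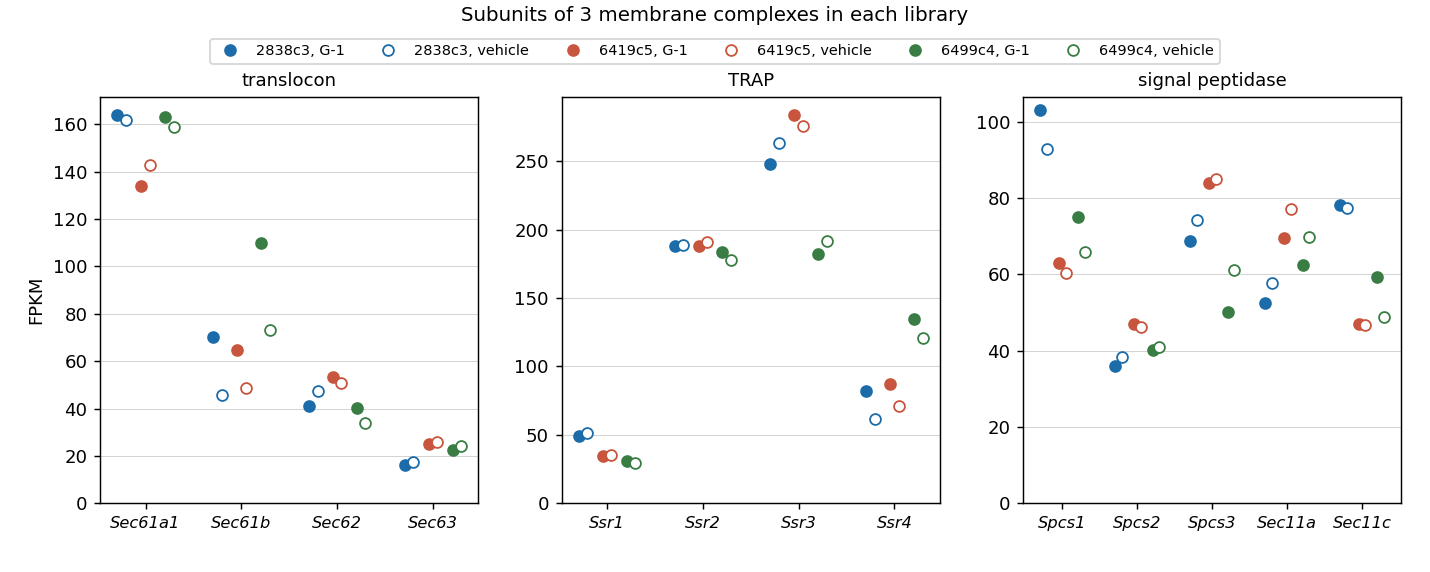
FPKM of the subunits of the translocon (without Sec61g), the TRAP complex and the signal peptidase in each library, linear axes from 0, filled circles for G-1, open circles for vehicle and a colour per line. Ssr2 is level while Ssr1 and Ssr4 order the lines in opposite ways, and Sec11c is above Sec11a in 2838c3 alone.

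Other genes of the same pathways differed between the lines about as often as all genes did. Of 69 such genes, 66 passed the level filter, and 13 were higher and 25 lower in 2838c3 than in 6419c5, 20 higher and 13 lower in 2838c3 than in 6499c4, and 21 higher and 7 lower in 6419c5 than in 6499c4. These are 57.6%, 50% and 42.4% of the 66, beside 51.5%, 55.6% and 45% of all genes. Among those that passed the test between 6419c5 and 6499c4 was Creb3l2, an ER membrane-bound transcription factor that promotes secretory capacity, with means of 17.7, 49.6 and 14.8 FPKM in 2838c3, 6419c5 and 6499c4. Its difference was 1.68 for 6419c5 minus 6499c4 (SE 0.089, adjusted p = 1.5e-05). Fkbp11, a prolyl isomerase of secretory cells, averaged 32.1, 62.8 and 20.1 FPKM, and Pdia5, a disulphide isomerase, 16.5, 38.1 and 15.5 FPKM. Both were higher in 6419c5 than in 6499c4, by 1.60 and 1.25 (adjusted p = 2.04e-05 and 0.000227). Ddit3 (CHOP), a stress-induced transcription factor, was lower in 2838c3 than in 6419c5 (10.4 and 21 FPKM, -0.91, adjusted p = 0.00281). Over the whole list, 24 of the 66 genes (36.4%) had their highest mean in 6419c5, beside 29.5% of all genes tested. Another 25 were highest in 2838c3 and 17 in 6499c4, beside 36.2% and 34.2% of all genes. Of the 14 degradation genes in the list, 2 (14.3%) were highest in 6419c5. These shares were not tested. Ube2j1, a ubiquitin-conjugating enzyme of ER-associated degradation, and Sec61a2, a second pore subunit, were highest in 2838c3, at 50.8 and 14.8 FPKM. In the oligosaccharyltransferase, Stt3b, the catalytic subunit that acts after translocation, was higher in 2838c3 (84.9 FPKM) than in 6419c5 (60.4 FPKM, difference 0.48, adjusted p = 0.00111).

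G-1 changed 0 of the 35 members at an adjusted p under 0.05 (limma with line as block), beside 3 of 10748 genes (0.0279%). At an unadjusted p under 0.05 there were 3 members, Sec61b, Ssr4 and Sec11a, beside 10.1% of all genes. With limma-voom on whole reads, which called 1.54% of all genes, 1 member passed, Sec61b. By sign, 7 members were higher with G-1 in all 3 lines, beside 15.4% of all genes. They include Sec61g, which entered the test through 1 G-1 library and whose sign in 2838c3 and 6419c5 rests on 3 to 5 reads a library. In the other direction, 8 members were lower in all 3 lines, beside 17.5%. The 14 chaperones had a median log2 difference of -0.05 and a range from -0.14 to 0.06, beside -0.006 over all genes. Their 95% intervals lay between -0.31 and 0.22, not adjusted over genes. The 3 called genes are not members, and 0 of the 66 other pathway genes were called by limma, 5 having an unadjusted p under 0.05 and 0 being called by limma-voom.

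Sec61b, the beta subunit of the channel, was the member with limma's lowest adjusted p. It had 70.1, 64.6 and 110 FPKM with G-1 in 2838c3, 6419c5 and 6499c4, against 45.9, 48.7 and 73 FPKM with vehicle, so each G-1 library was above its vehicle partner. From 330, 194 and 486 reads with G-1 and 217, 192 and 369 reads with vehicle, the read ratio of G-1 to vehicle on the authors' scale was 1.53 in 2838c3 (95% exact interval 1.28 to 1.82), 1.33 in 6419c5 (1.08 to 1.63) and 1.5 in 6499c4 (1.31 to 1.73). The difference was 0.53 (SE 0.065) on the log2(FPKM + 1) scale, with an adjusted p of 0.0987 in the limma fit, 0.0493 with only genes of at least 5 FPKM and 0.00333 with limma-voom. No other fit called it. The adjusted p was 0.66 with no filter on level and 0.491 with no variance trend. It was 0.201, 0.277 and 0.225 without 2838c3, 6419c5 and 6499c4. Over all alternatives the adjusted p ran from 0.00333 to 1.0, the last without the line as block. The ratio of Sec61b to Sec61a1 was 0.427, 0.481 and 0.673 with G-1 and 0.284, 0.34 and 0.46 with vehicle, higher with G-1 in each line.

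Ssr4 and Spcs1 were also higher with G-1 in all 3 lines, by 0.28 (SE 0.066, adjusted p = 0.3) and 0.13 (SE 0.058, adjusted p = 0.511), without passing the test. Ssr4 read ratios were 1.33 in 2838c3 (1.17 to 1.51), 1.22 in 6419c5 (1.06 to 1.41) and 1.12 in 6499c4 (1.02 to 1.23). Herpud1 and Derl2 had 0.10 (adjusted p = 0.591) and 0.08 (adjusted p = 0.747). On the other side, Sec11a was lower with G-1 in all 3 lines (-0.14, SE 0.056, adjusted p = 0.468), with read ratios of 0.913, 0.905 and 0.894 in 2838c3, 6419c5 and 6499c4. Hsp90b1 had -0.14 (SE 0.062, adjusted p = 0.505), with read ratios of 0.849 in 2838c3 (0.82 to 0.879), 0.981 in 6419c5 (0.949 to 1.01) and 0.894 in 6499c4 (0.864 to 0.924). Sec63 (-0.10, adjusted p = 0.666), Pdia4 (-0.08, adjusted p = 0.675) and Pdia6 (-0.06, adjusted p = 0.718) had the same sign in each line at smaller sizes. Hspa5 itself had 0.07, 0.11 and -0.01 in the 3 lines, and Xbp1 -0.05, 0.03 and 0.17.

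**Figure D4:**
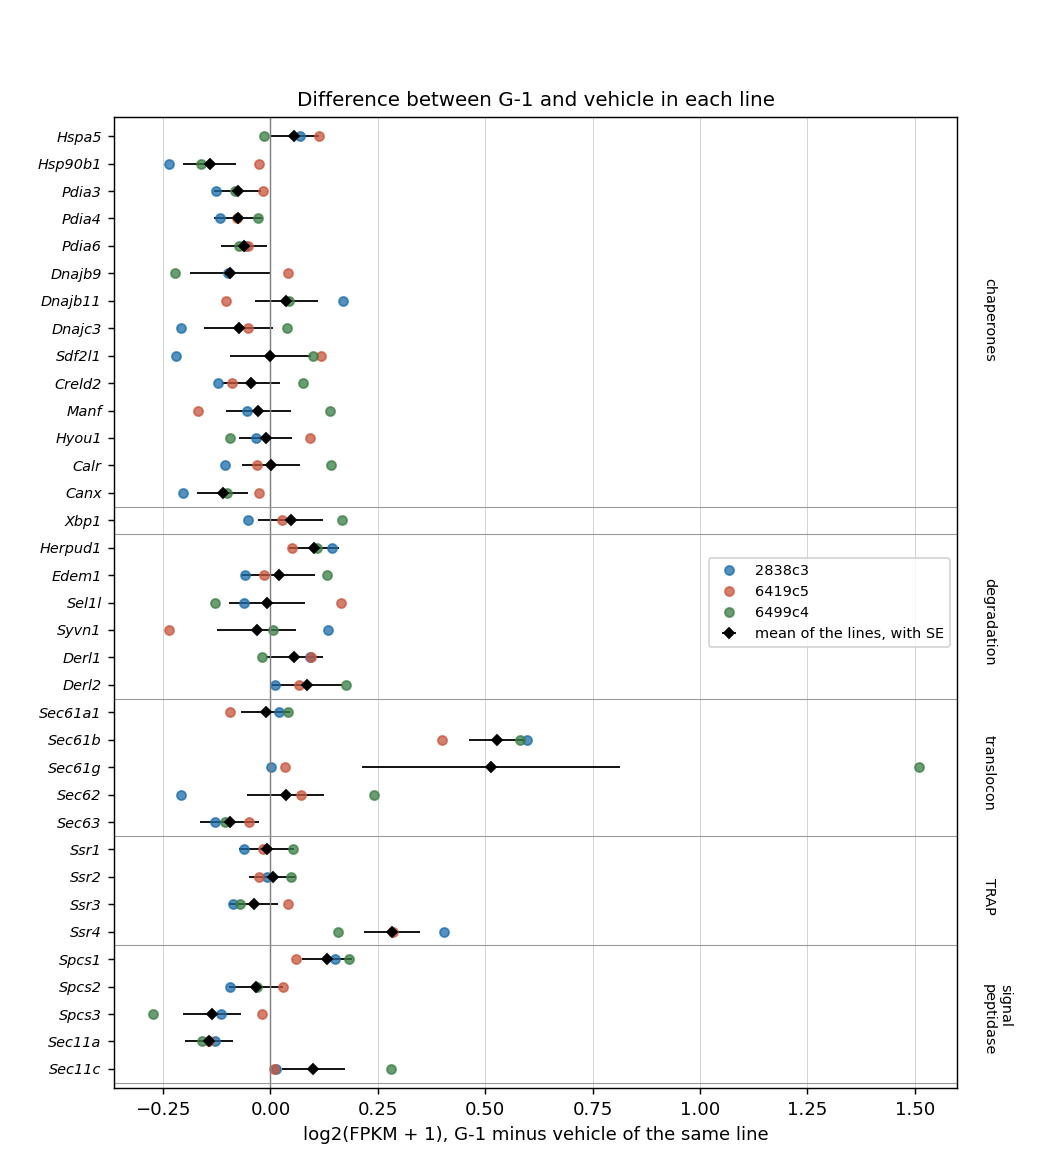
Log2(FPKM + 1) of G-1 minus vehicle for each member, with a circle per line, a diamond for the mean and a bar for its SE. Sec61b and Ssr4 lie right of 0 in all 3 lines, the value of Sec61g near 1.5 comes from 1 library with 19 reads, and most other members lie within 0.25 of 0.

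Gene length moved with the G-1 difference over all genes. The 297 genes of up to 600 bases had a median log2 difference of 0.12, the 595 of 600 to 1000 bases 0.10, the 2398 of 1000 to 2000 bases 0.04, the 4241 of 2000 to 4000 bases -0.01 and the 3217 longer ones -0.05. In the shortest class the medians were 0.003, 0.011 and 0.29 in 2838c3, 6419c5 and 6499c4. Sec61b (552 bases), Ssr4 (804), Sec11c (770) and Sec61g (779) are the shortest members, and Spcs1 has 1006 bases. With the trend on length removed from each library, the difference was 0.40 for Sec61b (adjusted p = 0.264), 0.18 for Ssr4 (adjusted p = 0.563) and 0.05 for Spcs1, and that of Sec11a was -0.22 (adjusted p = 0.439). With GC content removed as well, an alternative added after the data were seen, Sec61b was at 0.40 (adjusted p = 0.275) and Ssr4 at 0.16 (adjusted p = 0.619).

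**Figure D5:**
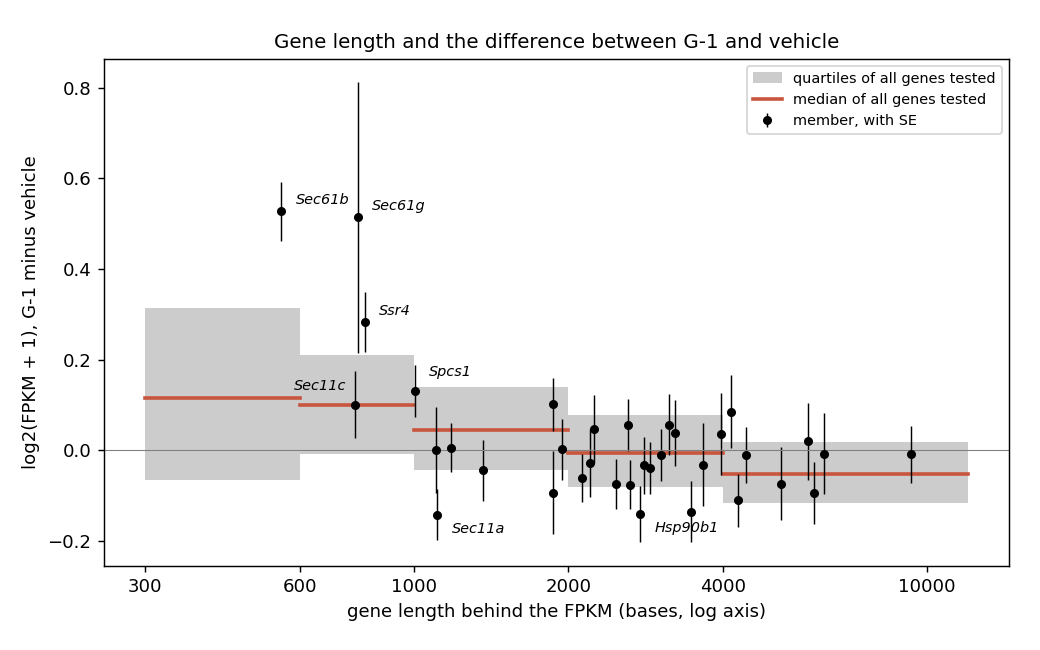
Log2(FPKM + 1) of G-1 minus vehicle for each member, with its SE, against the gene length behind the FPKM on a log axis, over the median and quartiles of all genes tested in 5 length classes. Medians fall with length. Sec61b, Ssr4, Sec61g and Derl2 are among the members above the upper quartile of their classes. Sec11a, Hsp90b1 and Spcs3 are among those below the lower quartile.

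Of the other pathway genes that had 1 sign in all 3 lines, Atf4, the transcription factor downstream of PERK, was at 0.19 (SE 0.062, adjusted p = 0.398) and Ddit3 at 0.36 (SE 0.131, adjusted p = 0.455). In 2838c3, 6419c5 and 6499c4, Atf4 had 0.269, 0.235 and 0.067, and Ddit3 had 0.328, 0.722 and 0.015. The last value rests on 93 G-1 and 105 vehicle reads. Ost4, a very small oligosaccharyltransferase subunit, was at 0.25 (SE 0.075, adjusted p = 0.373). Ern1, which encodes the sensor IRE1, was at -0.15 (SE 0.093, adjusted p = 0.606). None of these 4 passed the test.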

How the data were processed

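RNA sequencing of 6 libraries, 1 per line and treatment, gave 1 deposited table of FPKM values per gene symbol, made by the authors. Per the submitters' processing notes, STAR and DESeq2 were used, in roles that are not stated. The sources used here do not give the build, annotation, strandedness or counting rule. Whole reads were recovered from the equal steps of the FPKM values for all 15712 genes above 0 (within 0.01 reads). The scale behind the FPKM had the ratios of median-of-ratios size factors, and gene lengths came out whole within 0.05 bases for 99.2% of 10107 genes with over 200 reads.

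Differences were fitted in limma 3.58.1 (R 4.3.3) on log2(FPKM + 1), which understates the change of low genes, for 10748 genes whose mean reached 1 FPKM. All 6 libraries entered 1 fit with line and treatment as terms, a variance trend, 2 residual and 5.35 prior degrees of freedom. Tests were two-sided, and p-values were adjusted over all genes tested (Benjamini-Hochberg, threshold 0.05). The line pairs the libraries by design; deviations of both libraries of a line correlated at 0.906, 0.871 and 0.882. P-values measure the spread between these libraries, with no replicate culture within a line. A fold or ratio of FPKM is in linear units. The fit was tested on simulated data. Read ratios carry exact 95% binomial intervals, which, like the limit of 3 reads that a count of 0 allows (0.337 to 0.55 RPM), cover counting error only. Promoter windows are from RefSeq (GRCm38.p6), and transcripts, positions and exon overlaps from GENCODE M21 (GRCm38), with copies found by blastn at 95% identity or more. Up to 6 called members per direction and pair, and up to 5 per direction for G-1, were taken for full statistics. Other statistics and genes printed were chosen after their values were seen. The members and lists were chosen with earlier results of these data known. Alternatives were another pseudocount, filter, library scale, variance model, limma-voom, a length correction, no block and each library or line left out.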

Additional observations from a re-analysis of the deposited data

Results flagged for a closer look

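For 3 members the read ratio of G-1 to vehicle lay on opposite sides of 1 in a pair of lines, with both 95% exact intervals clear of 1. The rule was applied to the members alone, so no share of all genes stands beside this count. Nothing particular to the members is read from it. These intervals cover counting error in 1 library per line and treatment, and the difference between lines was not tested over replicates. Calr, the calreticulin gene, had a ratio of 1.1 in 6499c4 (1.07 to 1.14) and 0.93 in 2838c3 (0.907 to 0.953), from 7695 G-1 and 7961 vehicle reads in 6499c4 and 12207 G-1 and 13163 vehicle reads in 2838c3. Sec62, the translocon partner of Sec63, had 1.19 in 6499c4 (1.1 to 1.29) and 0.863 in 2838c3 (0.803 to 0.928). Its antisense neighbour 4933429H19Rik shares 509 exonic bases with it. Sel1l, the adaptor of the HRD1 ligase, had 1.13 in 6419c5 (1.01 to 1.26) and 0.91 in 6499c4 (0.83 to 0.998).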

How the results depend on the processing

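No named member that passed the test turned its sign under the alternatives run. Of 585 values of 45 results on named members, 551 stayed on their side of the threshold with their sign, 32 lost the call and 2 gained it, both for Sec61b. For G-1 the count of members called was 1 with a filter of 5 FPKM and 1 with limma-voom. Without the replicate block it was 0, and the block ended no call. With a library left out, members called numbered 12 to 18 between 2838c3 and 6419c5 and 10 to 14 between 6419c5 and 6499c4. The lowest such count fell less far in the pair of 2838c3 and 6499c4. Each of these fits leaves 1 library in a line, and counts over all genes are not given for them. Nothing particular to the members is therefore read from the fall. The degradation median for G-1, 0.037, was 0.031 with quantile scaling, 0.053 scaled to total reads, 0.067 with the length correction, 0.071 with GC and length correction (added after the data were seen) and 0.045 to 0.053 with a line left out. For 2838c3 minus 6419c5 the chaperone median was -0.197 with quantile scaling, -0.253 scaled to total reads, -0.171 with the length correction, -0.184 with GC and length, and -0.226 to -0.198 with a library left out. The degradation median there was -0.293 with the length correction, -0.296 with GC and length, and -0.252 to -0.165 with a library left out. For 2838c3 minus 6499c4 the chaperone median, 0.131, was 0.0 scaled to total reads, 0.054 with quantile scaling, 0.201 with the length correction, 0.197 with GC and length, and 0.055 to 0.239 with a library left out. The degradation median there was -0.192 with quantile scaling, -0.276 scaled to total reads, -0.257 with the length correction and -0.281 with GC and length. For 6419c5 minus 6499c4 the chaperone median was 0.353 with quantile scaling, 0.318 scaled to total reads, 0.46 with the length correction, 0.441 with GC and length, and 0.378 to 0.477 with a library left out. The degradation median there, -0.001, has no firm sign: it was 0.006 with limma-voom, -0.058 with quantile scaling, -0.102 scaled to total reads and 0.005 to 0.045 with a library left out. The cause of these shifts was not tested. Scaling to total reads moved the median of all genes to -0.115 for 2838c3 minus 6499c4 and to -0.101 for 6419c5 minus 6499c4. Depth limits Sec61g, with 3 to 19 reads a library, and low co-chaperones more than the abundant chaperones. With 1 library per line and treatment, a difference in the G-1 response between lines could not be tested.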
